A study of Mus musculus with 6 samples.

Results

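The genes described here are 43 genes of microglia, complement, antigen presentation and the interferon response, chosen by name and read from the gene table of a study of mouse retina. Of the 43 names, 37 matched a row among the 13072 genes listed, and 36 of these averaged 0.5 FPKM or more and were tested. FPKM scales fragments by gene length and by the mapped total of a library, so it can be compared between genes. The 37 genes comprise 19 microglia and macrophage genes, 4 antigen presentation genes, 11 interferon genes and 3 genes for ligands and signals that act on microglia. Cd14, Irf8, Il34, Tap1, Ifit1 and Ifit3 are not analysed at the gene level here.

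The libraries came from dissected retinas of C57BL/6 mice at postnatal day 7, with 3 libraries labelled CTGF-/- and 3 labelled wild type (WT). Connective tissue growth factor, encoded by Ctgf, is a secreted matrix-associated protein, and the study made deficient animals with an inducible Cre/lox system. The sources used here name neither the Cre driver nor the inducing agent, and do not state whether WT animals carried Cre or received that agent. Nothing in the labels ties a library to an animal of its own, so the p-values cover only library-to-library spread, possibly technical.

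Microglia are the resident macrophages of the retina. They depend on the receptor encoded by Csf1r, clear dying neurons and synapses during the first postnatal weeks, and associate with growing vessels. They are the main retinal source of the C1q complex, which starts the classical complement pathway. Interferons signal through cell surface receptors and STAT and IRF transcription factors, and the induced genes include antiviral effectors and the class I antigen presentation machinery. In retinal tissue, fewer cells of a type and less RNA per cell cannot be told apart.

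Summed FPKM per library was 217674 to 230474 in CTGF-/- and 208436 to 216436 in WT, so the totals did not overlap, and the sequencing depth is unknown because the tables hold no counts. Ctgf itself was at 0.587, 1 and 0.526 FPKM in CTGF-/- replicates 1 to 3 and 0.932, 0.777 and 1.51 FPKM in WT replicates 1 to 3 (limma, adjusted p = 0.571). The deleted part of the gene is not given, so this level does not check the labels. All 16 retinal markers examined were listed, and they summed to 1840 to 2017 FPKM in CTGF-/- and 1484 to 1802 FPKM in WT. The 6 Mueller glia markers summed to 284 to 310 FPKM in CTGF-/- and 315 to 331 FPKM in WT. Endothelial markers, 11 of 11 of them lower, summed to 40.1 to 42.2 FPKM in CTGF-/- and 49.3 to 59.6 FPKM in WT, and 6 astrocyte markers to 13.8 to 17.2 FPKM in CTGF-/- and 17.9 to 23.1 FPKM in WT. None of these 4 sums overlapped between the groups, and their part in the results below was not tested. Sums weigh abundant genes most. Kdr alone gave 27.3 to 30.6 FPKM of the endothelial sum in CTGF-/- and 32.3 to 38.5 FPKM in WT. As a mean of log2(FPKM + 1) over each list, the retinal, endothelial and astrocyte levels overlapped between the groups. The Mueller glia level did not. The 12 lens markers summed to 494, 264 and 4205 FPKM in CTGF-/- replicates 1 to 3 and to 549, 4.65 and 5.47 FPKM in WT replicates 1 to 3, so lens RNA was near absent in 2 WT libraries. Erythroid markers were highest in WT replicate 3, at a sum of 612 FPKM over 5 genes, against 138 to 323 FPKM in CTGF-/- and 94.6 and 188 FPKM in the other WT libraries. Of 17 markers of blood monocytes, neutrophils and lymphocytes 4 were listed (S100a8, S100a9, Cd4 and Cd8a). The 3 of these that were tested summed to 1.57 to 2.12 FPKM in CTGF-/- and 1.22 to 3.72 FPKM in WT.

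The 6 genes with the smallest p-values were all higher in CTGF-/-, namely the phagocyte genes Cd68 and Fcer1g, the C1q chain genes C1qa and C1qc, the protease gene Lgmn and the class I light chain gene B2m. None of the 36 genes passed limma at an adjusted p of 0.05 (lowest adjusted p = 0.533), a threshold that 6 of all 12915 genes tested passed (0.0465%). At an unadjusted p under 0.05, 6 of the 36 were higher, namely Cd68, Fcer1g, C1qa, C1qc, Lgmn and B2m, and 0 were lower. Over all genes tested these shares were 3.83% higher and 5.49% lower. Groups without overlap were seen for 9 genes that were higher in CTGF-/- and for 1 that was lower, against 7.53% and 10.9% of all genes tested. The 9 were the 6 genes above with Ctsd, Grn and Lyz2, and the 1 was Cd47.

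**Figure D1:**
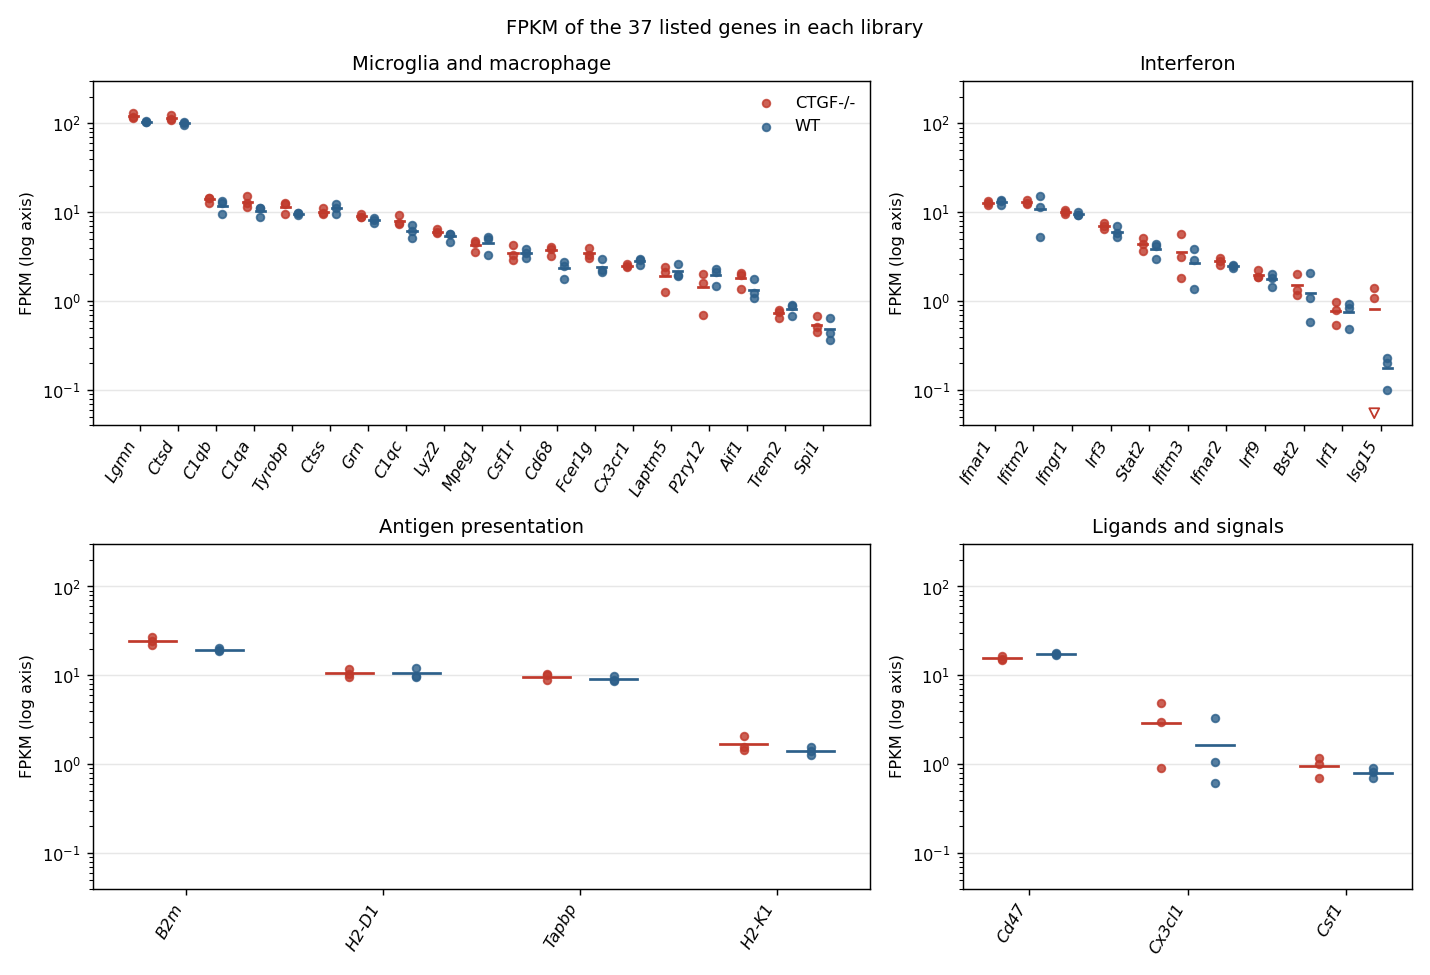
FPKM (log axis) of the 37 listed genes in each library, with CTGF-/- points to the left of WT points, a bar at each mean, and genes ordered by mean level within 4 panels. The open triangle marks the CTGF-/- library in which Isg15 was listed at 0; Lgmn and Ctsd lie above all other genes at 95.5 to 131 FPKM.

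C1qa, C1qb and C1qc encode the A, B and C chains that assemble into C1q. They lie beside each other on the minus strand of chromosome 4 (GRCm38), with C1qb at 136880129 to 136886187, C1qc at 136889804 to 136893065 and C1qa at 136895917 to 136898803. C1qa was at 11.6, 12.7 and 15.1 FPKM in CTGF-/- replicates 1 to 3, against 11.1, 11.1 and 8.93 FPKM in WT replicates 1 to 3. Every CTGF-/- library lay above every WT library, although CTGF-/- replicate 1 stood only just above the higher WT libraries. The log2 difference, taken throughout as CTGF-/- minus WT of mean log2(FPKM + 1), was 0.31 (SE 0.13, limma p = 0.0404, adjusted p = 0.533, exact permutation p = 0.1), and the ratio of mean FPKM was 1.27.

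C1qc was at 7.37, 7.5 and 9.29 FPKM in CTGF-/- and 7.21, 6.11 and 5.15 FPKM in WT. The groups again did not overlap, with a log2 difference of 0.34 (SE 0.14, limma p = 0.0387, adjusted p = 0.533, exact permutation p = 0.1). C1qb, the most abundant of the 3, was at 12.9, 14.6 and 14.5 FPKM in CTGF-/- and 13.6, 12.6 and 9.52 FPKM in WT. WT replicate 1 lay above CTGF-/- replicate 1, and the log2 difference of 0.23 (SE 0.13) had a limma adjusted p of 0.568. For all 3 genes WT replicate 3 was the lowest library. Without it the log2 differences were 0.22 for C1qa, 0.24 for C1qc and 0.089 for C1qb. Without CTGF-/- replicate 3, the highest library for C1qa and C1qc, they were 0.22, 0.25 and 0.20. WT replicate 3 thus carried much of the C1qb difference, while those of C1qa and C1qc fell about equally without either library.

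**Figure D2:**
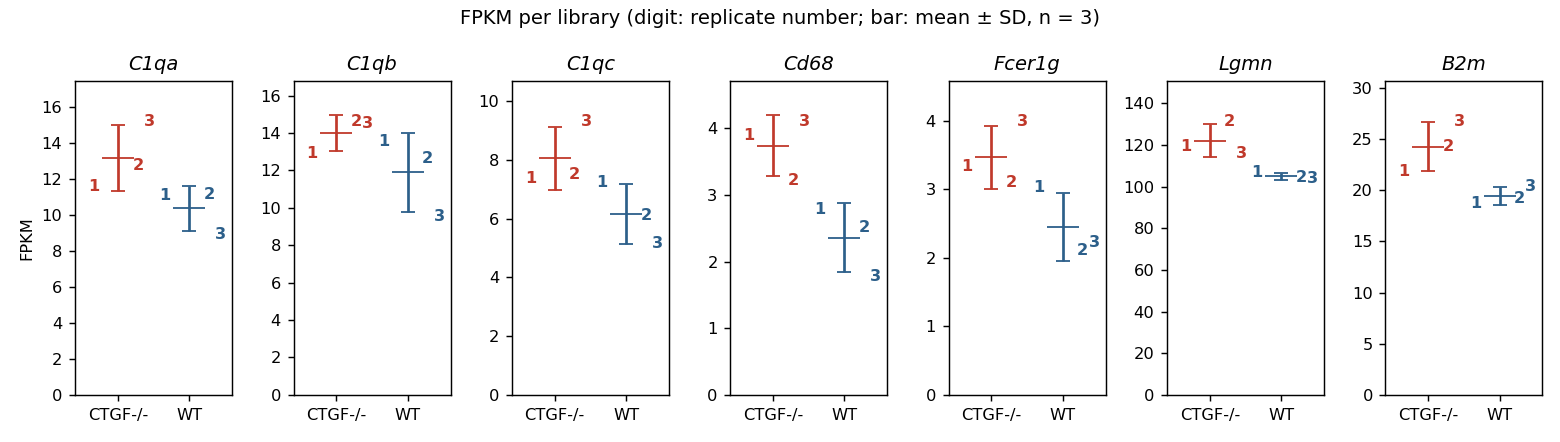
FPKM of C1qa, C1qb, C1qc, Cd68, Fcer1g, Lgmn and B2m in each library, CTGF-/- left and WT right, where a digit is the replicate number and the bars give mean ± SD (n = 3). The groups overlap for C1qb and for no other gene shown.

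The promoter of C1qc is shown because C1qc was among the genes at an unadjusted p under 0.05 and because it held a PU.1 box, the motif of the myeloid factor encoded by Spi1. The sequence is from RefSeq, 250 bases before to 50 after the start (GRCm38.p6, chr4:136892865-136893164, minus strand), 5′ to 3′, with the motif in capitals. The motif searched was GAGGAAGT on both strands, and here it lies on the strand opposite the gene. It occurred in 3.2% of all 32851 promoters of that length. Counted by gene, where a gene can have several promoters, it occurred in 2 of 15 microglia and macrophage genes, C1qc and Ctss. A match describes letters and not binding.
C1qc promoter: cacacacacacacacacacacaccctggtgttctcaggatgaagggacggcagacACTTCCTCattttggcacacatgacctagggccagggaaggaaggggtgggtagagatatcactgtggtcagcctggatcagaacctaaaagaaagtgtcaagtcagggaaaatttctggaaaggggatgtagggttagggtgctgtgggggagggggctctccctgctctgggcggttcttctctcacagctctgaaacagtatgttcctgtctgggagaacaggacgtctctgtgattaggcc

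Among the 6 lysosomal and phagocytic genes, 5 were higher in CTGF-/-, all 5 without overlap between the groups, and the median log2 difference was 0.17. Over all genes tested, 7.53% were higher without overlap. Cd68, a lysosomal membrane glycoprotein gene of phagocytes on chromosome 11 (69664213 to 69666153), had the largest log2 difference of the microglia and macrophage genes. It was at 3.89, 3.22 and 4.09 FPKM in CTGF-/- and 2.78, 2.52 and 1.78 FPKM in WT. Its lowest CTGF-/- library thus exceeded its highest WT library, with means of 3.73 ± 0.456 and 2.36 ± 0.521 FPKM (SD, n = 3 each) and a log2 difference of 0.50 (SE 0.14, limma p = 0.00873, adjusted p = 0.533, exact permutation p = 0.1). An exact two-sided p of 0.1 is the smallest that 3 libraries against 3 allow.

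Lgmn and Ctsd encode the lysosomal proteases legumain and cathepsin D, which many cell types make. Lgmn was at 119, 131 and 116 FPKM in CTGF-/- and 107, 104 and 104 FPKM in WT, a log2 difference of 0.21 (SE 0.08, limma p = 0.0289, adjusted p = 0.533, exact permutation p = 0.1). Ctsd was at 112, 126 and 110 FPKM in CTGF-/- and 105, 95.5 and 102 FPKM in WT, a log2 difference of 0.20 (SE 0.09, limma adjusted p = 0.533). CTGF-/- replicate 2 was the highest library for both, and they were the most abundant of the 37 genes.

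Grn, which encodes the lysosomal factor progranulin, averaged 9.08 ± 0.459 FPKM in CTGF-/- and 8.18 ± 0.56 FPKM in WT. Lyz2, the lysozyme gene of myeloid cells, averaged 6.06 ± 0.335 FPKM in CTGF-/- and 5.38 ± 0.619 FPKM in WT (SD, n = 3 each). Neither reached an unadjusted p under 0.05 in limma. Ctss, the cathepsin S gene that is strongly expressed in microglia, had the opposite sign, with 9.48, 9.74 and 11.1 FPKM in CTGF-/- and 12.5, 9.66 and 11.3 FPKM in WT (log2 difference −0.13, SE 0.11). In the annotation used (GENCODE M21), Ctsd overlaps the gene Gm49369 and Ctss overlaps the pseudogene Hmgb1-ps5 on the same strand, so their reads could be divided differently.

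The 10 tested surface, signalling and transcription factor genes split evenly around no difference, with 4 higher and 6 lower in CTGF-/- and a median log2 difference of −0.03. Fcer1g encodes the common gamma chain of Fc receptors and Tyrobp encodes DAP12, the signalling adaptor of TREM2. Fcer1g was at 3.33, 3.09 and 3.98 FPKM in CTGF-/- and 3.02, 2.11 and 2.23 FPKM in WT, without overlap, a log2 difference of 0.38 (SE 0.13, limma p = 0.0247, adjusted p = 0.533, exact permutation p = 0.1). Tyrobp was at 12.6, 9.61 and 12.5 FPKM in CTGF-/- and 9.37, 9.83 and 9.82 FPKM in WT. CTGF-/- replicate 2 thus lay within the WT range of Tyrobp, while the other CTGF-/- libraries lay above it (log2 difference 0.23, SE 0.11, limma adjusted p = 0.553).

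Aif1, which encodes the actin-binding protein IBA1, was at 2.07, 1.99 and 1.37 FPKM in CTGF-/- and 1.76, 1.07 and 1.23 FPKM in WT (log2 difference 0.26, SE 0.15). Spi1, the gene of the myeloid factor PU.1, was weakly expressed at 0.547 ± 0.118 FPKM in CTGF-/- and 0.483 ± 0.144 FPKM in WT (SD, n = 3 each). These overlapping values did not separate the groups.

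Csf1r, the receptor on which microglial survival depends, had the same mean level in the groups, with 2.92, 4.26 and 3.28 FPKM in CTGF-/- and 3.47, 3.06 and 3.9 FPKM in WT (limma, adjusted p = 0.991). The SE of its log2 difference was 0.14. Cx3cr1, the fractalkine receptor gene, was at 2.41, 2.62 and 2.47 FPKM in CTGF-/- and 2.57, 3.01 and 2.9 FPKM in WT. Its CTGF-/- replicate 2 lay just above WT replicate 1, and the log2 difference was −0.13 (SE 0.09). Cx3cr1 spans other genes on its strand, Gorasp1 among them, so its reads could be divided differently. P2ry12, the purinergic receptor gene of resting microglia, was at 2.02, 0.702 and 1.59 FPKM in CTGF-/- and 2.28, 2.11 and 1.47 FPKM in WT, a log2 difference of −0.31 (SE 0.22, limma adjusted p = 0.614) in which CTGF-/- replicate 2 stood far below the rest.

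Trem2, a lipid-sensing receptor gene, averaged 0.731 ± 0.0801 FPKM in CTGF-/- and 0.822 ± 0.116 FPKM in WT. Laptm5, a lysosomal transmembrane protein gene of blood-derived cells, averaged 1.93 ± 0.606 FPKM in CTGF-/- and 2.17 ± 0.385 FPKM in WT. Mpeg1, the perforin-2 gene of macrophages, averaged 4.3 ± 0.668 FPKM in CTGF-/- and 4.52 ± 1.06 FPKM in WT (SD, n = 3 each). All 3 had overlapping groups and negative log2 differences, of −0.07 for Trem2, −0.13 for Laptm5 and −0.05 for Mpeg1. The direction was opposite for Laptm5 without CTGF-/- replicate 1 (0.050), and for Mpeg1 without any of 3 single libraries. The difference between these receptor genes and the C1q and lysosomal genes was not tested.

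**Figure D3:**
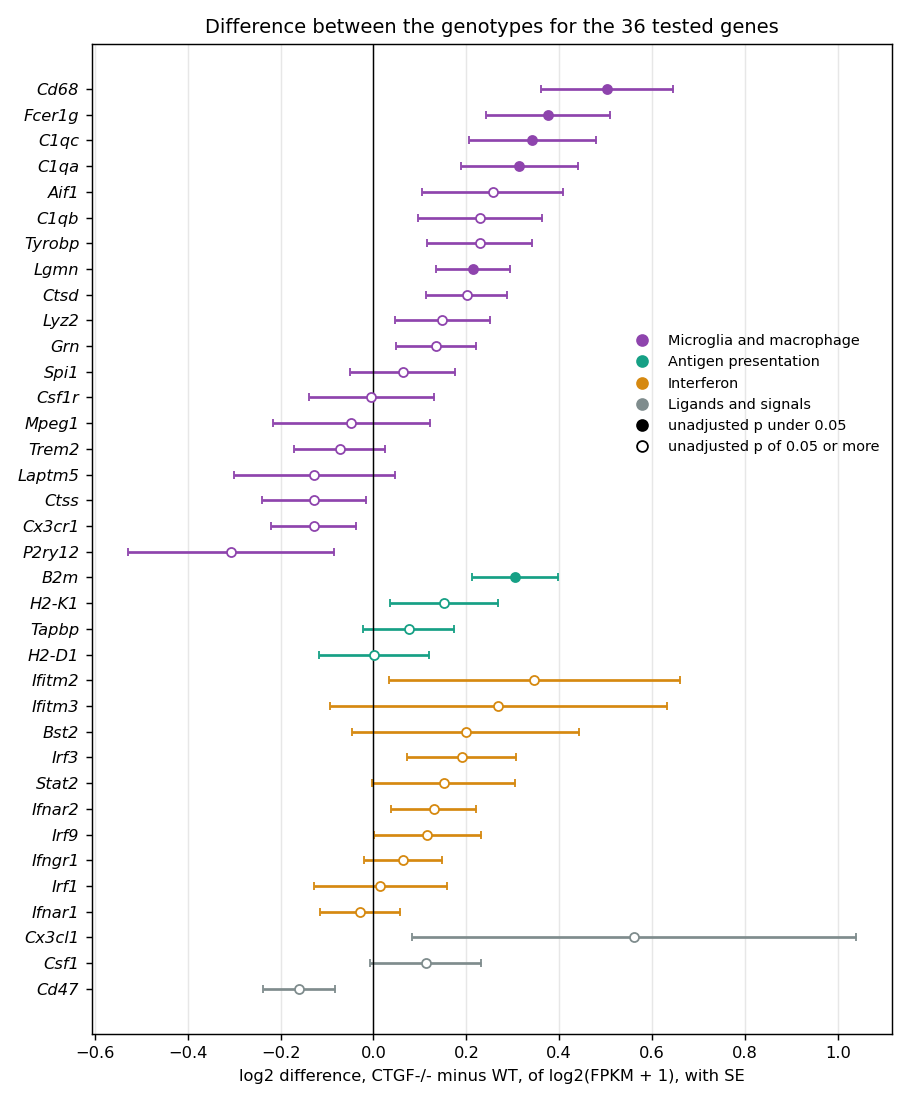
Log2 difference (CTGF-/- minus WT of log2(FPKM + 1)) with its SE for the 36 tested genes, coloured by group and filled where the unadjusted limma p was under 0.05. The 6 filled points lie at 0.21 to 0.50, 5 among microglia and macrophage genes and 1, B2m, among antigen presentation genes.

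Of the genes whose products signal to microglia, Cd47 encodes a cell surface protein that restrains phagocytosis. It was at 15.1, 14.8 and 16.6 FPKM in CTGF-/- and 17, 17.7 and 17.6 FPKM in WT. Every CTGF-/- library lay below every WT library, with a log2 difference of −0.16 (SE 0.08, limma adjusted p = 0.549). It was the only gene of the 36 with a non-overlapping lower level. Cx3cl1, the fractalkine gene, swung between libraries of the same group, with 3.02, 0.915 and 4.91 FPKM in CTGF-/- and 3.27, 0.614 and 1.05 FPKM in WT. Its high libraries, CTGF-/- replicates 1 and 3 and WT replicate 1, are the 3 with the most lens RNA. Its log2 difference of 0.56 (SE 0.48) became −0.54 with lens level in the model. Csf1, a ligand of the Csf1r receptor, averaged 0.956 ± 0.243 FPKM in CTGF-/- and 0.802 ± 0.104 FPKM in WT (SD, n = 3 each).

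B2m encodes beta-2 microglobulin, the light chain of class I molecules, on chromosome 2 (122147686 to 122153083). It was at 21.9, 24.3 and 26.7 FPKM in CTGF-/- and 18.7, 19.2 and 20.4 FPKM in WT. The groups did not overlap, and the log2 difference was 0.30 (SE 0.09, limma p = 0.0128, adjusted p = 0.533, exact permutation p = 0.1). On a log2 scale it ranged from 0.24 to 0.37 when 1 library was left out, and it was 0.27 with lens level in the model.

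The class I heavy chain genes H2-K1 and H2-D1 had overlapping groups, and their difference from B2m was not tested. H2-K1 was at 1.57, 2.05 and 1.44 FPKM in CTGF-/- and 1.56, 1.28 and 1.4 FPKM in WT (log2 difference 0.15, SE 0.12). H2-D1 was at 9.49, 11.8 and 10.3 FPKM in CTGF-/- and 9.64, 9.86 and 12.1 FPKM in WT, with a log2 difference of 0.00 (SE 0.12, adjusted p = 0.997 in limma). The class I genes form a family of similar sequences, so reads could be assigned to another member. Tapbp, which encodes the peptide-loading factor tapasin, averaged 9.7 ± 0.842 FPKM in CTGF-/- and 9.15 ± 0.718 FPKM in WT (SD, n = 3 each), and it overlaps Zbtb22 on the same strand.

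Interferon receptor genes were at similar levels in the groups. Ifnar1 and Ifnar2 encode the chains of the type I interferon receptor, and Ifngr1 encodes the ligand-binding chain for interferon gamma. Ifnar1 averaged 12.7 ± 0.743 FPKM in CTGF-/- and 13 ± 0.862 FPKM in WT, Ifngr1 10.1 ± 0.581 FPKM in CTGF-/- and 9.58 ± 0.535 FPKM in WT, and Ifnar2 2.81 ± 0.244 FPKM in CTGF-/- and 2.48 ± 0.0856 FPKM in WT (SD, n = 3 each). Their log2 differences were −0.03, 0.06 and 0.13, with SEs of 0.09, 0.08 and 0.09. Under equal FPKM totals Ifngr1 was at −0.011. Ifnar2 overlaps Gm21970, and Irf9 overlaps Rnf31, on the same strand.

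The transcription factor genes of the pathway all had positive log2 differences smaller than 0.20. Groups did not overlap for 0 of 4 of them, against 18.5% of all genes tested. Stat2 and Irf9 encode partners in the factor complex that type I interferon activates. Stat2 was at 4.37, 5.15 and 3.69 FPKM in CTGF-/- and 4.21, 4.45 and 2.99 FPKM in WT (log2 difference 0.15, SE 0.15), and Irf9 averaged 1.99 ± 0.224 FPKM in CTGF-/- and 1.77 ± 0.29 FPKM in WT. Irf3, which acts below cytosolic nucleic acid sensors, was at 6.98, 7.59 and 6.51 FPKM in CTGF-/- and 7.08, 5.87 and 5.26 FPKM in WT (log2 difference 0.19, SE 0.12). Irf1, itself induced by interferon gamma, averaged 0.772 ± 0.224 FPKM in CTGF-/- and 0.756 ± 0.233 FPKM in WT (SD, n = 3 each), and its log2 difference of 0.01 was negative under equal FPKM totals and without any of 3 single libraries.

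The interferon-stimulated genes varied widely between libraries of the same genotype. Ifitm2 and Ifitm3 encode related antiviral membrane proteins, and reads of such paralogs could be exchanged. Ifitm2 was at 12.3, 13.7 and 12.7 FPKM in CTGF-/- and 11.6, 5.31 and 15.4 FPKM in WT. Ifitm3 was at 5.73, 1.82 and 3.13 FPKM in CTGF-/- and 2.88, 1.36 and 3.91 FPKM in WT. Bst2, which encodes the virus-tethering protein tetherin, was at 2.02, 1.18 and 1.33 FPKM in CTGF-/- and 1.08, 0.59 and 2.07 FPKM in WT. WT replicate 2 was the lowest library and WT replicate 3 the highest WT library for all 3. Without WT replicate 2 their log2 differences of 0.35, 0.27 and 0.20 became −0.049, −0.028 and −0.024, and that of Ifitm3 was −0.057 without CTGF-/- replicate 1.

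Isg15, the ubiquitin-like effector gene, had 1.39, 0 and 1.07 FPKM in CTGF-/- and 0.227, 0.101 and 0.202 FPKM in WT. CTGF-/- replicates 1 and 3 were thus above all WT libraries, while CTGF-/- replicate 2 was listed at 0, which can be a failed estimate. Its mean over the 6 libraries was just under the filter, and it was not tested.

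Promoters with an interferon-stimulated response element, GAAANNGAAA on either strand, are shown for B2m, whose level stood higher, and for Stat2 and Isg15, whose levels did not separate the groups. Counted by gene, with a match in any promoter, the element occurred in 5 of 11 interferon genes (Stat2, Isg15, Ifitm2, Ifitm3 and Bst2). It also occurred in 1 of 4 antigen presentation genes, B2m, and in 2 of 15 microglia and macrophage genes (Aif1 and Ctss). Counted by promoter, it occurred in 3.44% of all 32851 promoters. The units differ, since 33 of the genes had 38 promoters. Sequences are from RefSeq (GRCm38.p6), 5′ to 3′ on the gene's strand, with matches in capitals, 3 of them overlapping in Isg15. They lie at chr2:122147437-122147736 (plus strand), chr10:128270248-128270547 (plus strand) and chr4:156200769-156201068 (minus strand). Of the 8 genes with a match, Isg15 was not tested, and B2m was the only gene at an unadjusted p under 0.05. Of all genes tested, 9.32% were under that cut, so 1 such gene among so few tells little.
B2m promoter: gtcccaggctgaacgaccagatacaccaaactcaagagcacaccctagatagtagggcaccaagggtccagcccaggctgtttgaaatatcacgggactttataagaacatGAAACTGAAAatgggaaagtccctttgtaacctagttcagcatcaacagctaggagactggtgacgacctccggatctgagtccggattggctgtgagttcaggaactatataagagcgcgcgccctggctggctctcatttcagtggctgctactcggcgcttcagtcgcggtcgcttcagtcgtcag
Stat2 promoter: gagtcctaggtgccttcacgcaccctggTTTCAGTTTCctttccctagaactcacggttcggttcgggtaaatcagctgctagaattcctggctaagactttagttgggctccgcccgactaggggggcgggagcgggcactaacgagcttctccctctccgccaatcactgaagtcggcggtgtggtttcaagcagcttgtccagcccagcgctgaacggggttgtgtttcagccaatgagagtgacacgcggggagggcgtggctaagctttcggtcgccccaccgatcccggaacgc
Isg15 promoter: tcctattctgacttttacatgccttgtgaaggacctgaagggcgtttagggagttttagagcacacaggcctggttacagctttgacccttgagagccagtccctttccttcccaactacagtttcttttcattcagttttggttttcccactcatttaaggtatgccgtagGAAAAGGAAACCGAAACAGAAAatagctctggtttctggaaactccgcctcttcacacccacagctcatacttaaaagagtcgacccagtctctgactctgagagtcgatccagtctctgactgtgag

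Set side by side, the microglia and macrophage genes had a median log2 difference of 0.15 (12 of 19 higher), the antigen presentation genes 0.11 (4 of 4 higher) and the interferon genes 0.14 (9 of 10 higher). The median over all genes tested was −0.02, with 44.9% higher. The medians lay close together, while 5 of the 19 microglia and macrophage genes and 1 of the 4 antigen presentation genes, B2m, were at an unadjusted p under 0.05, and 0 of the 10 interferon genes were. Non-overlapping higher genes numbered 8 of 19, 1 of 4 and 0 of 10 in these groups. Over all genes tested, 3.83% were higher at an unadjusted p under 0.05 in limma and 7.53% were higher without overlap. At shares this low, a count of 0 among 10 genes tells little. The microglia and macrophage median pools unlike lists. It was −0.03 for the surface, signalling and transcription factor genes (4 higher, 6 lower), 0.31 for the C1q genes and 0.17 for the lysosomal genes. No difference between the groups of genes was tested.

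The level of each group in a library, as the mean of log2(FPKM + 1) over its tested genes minus the WT mean, did not overlap between the groups for the lysosomal genes, at 0.16, 0.19 and 0.18 in CTGF-/- and 0.028, −0.0029 and −0.025 in WT. The C1q level was 0.17, 0.27 and 0.44 in CTGF-/- and 0.16, 0.063 and −0.23 in WT. These groups did not overlap either, but CTGF-/- replicate 1 (0.169) and WT replicate 1 (0.163) were nearly level. The interferon level was 0.26, 0.11 and 0.063 in CTGF-/- and 0.067, −0.17 and 0.10 in WT, with overlapping groups, and the interferon median of 0.14 was 0.025 without WT replicate 2. CTGF-/- replicate 3, highest for C1q, was also highest for lens markers. WT replicate 3, lowest for C1q, had little lens RNA and the highest erythroid and endothelial levels.

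**Figure D4:**
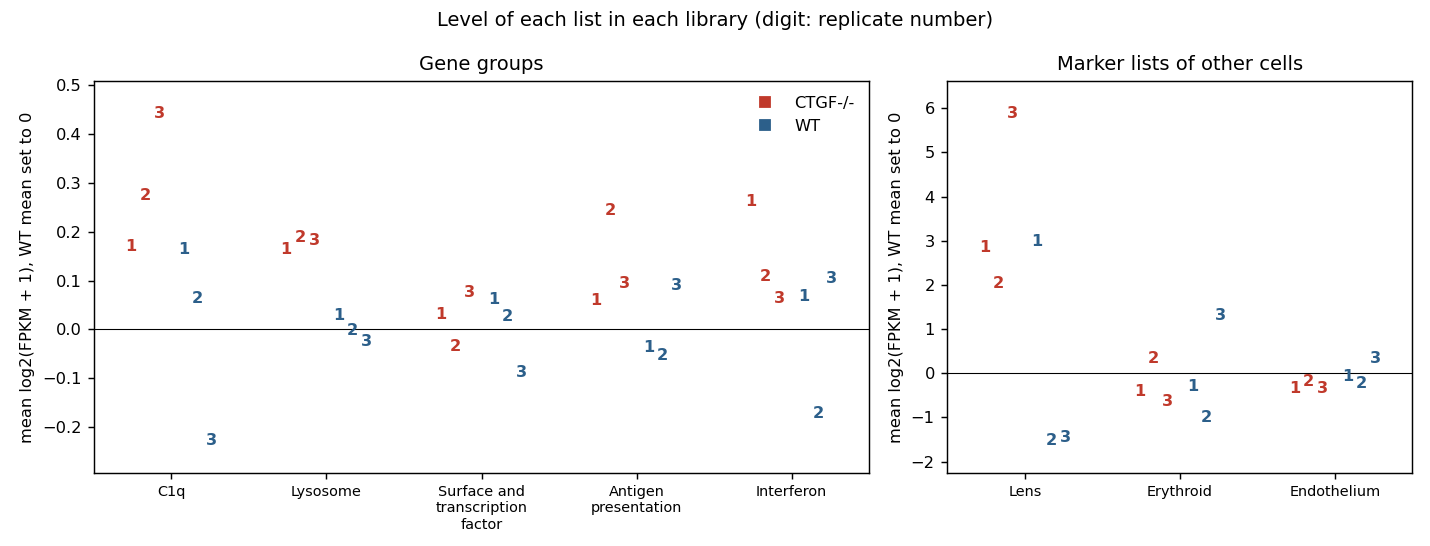
Mean log2(FPKM + 1) of each gene group (left) and of marker lists of other cells (right) in each library, with the WT mean set to 0, CTGF-/- left of WT and digits for replicate numbers. The lysosomal levels and, by a very small gap, the C1q levels do not overlap between the groups, while lens levels span from −1.51 to 5.88.

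The lens level averaged 3.58 higher in CTGF-/- than in WT, on a log2 scale, and so was partly confounded with genotype. The groups overlapped, at 2.84, 2.03 and 5.88 in CTGF-/- and 2.98, −1.51 and −1.46 in WT. With this level in the model, a setting chosen after the lens values were seen, 0 of the 36 genes had an unadjusted p under 0.05 in limma, as had 6.14% of all genes tested, against 9.32% without it. The log2 difference of Cd68 was then 0.29, of C1qa 0.14, of C1qc 0.08 and of Fcer1g 0.11, while those of Lgmn and B2m were 0.25 and 0.27. Rescaling the libraries to equal FPKM totals left 3 genes higher (Cd68, Fcer1g and B2m) and 1 lower (Cd47) at an unadjusted p under 0.05, in place of 6 and 0. Under the same rescaling all genes tested split into 185 higher and 1294 lower, in place of 495 and 709. Of the 6 genes, only Cd68 and Lgmn were left without CTGF-/- replicate 3, where Aif1 was added, only Cd68, B2m and C1qa without WT replicate 2, and only Cd68 and B2m without WT replicate 3. The shares over all genes tested were then 8.56%, 4.63% and 8.86%.

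**Figure D5:**
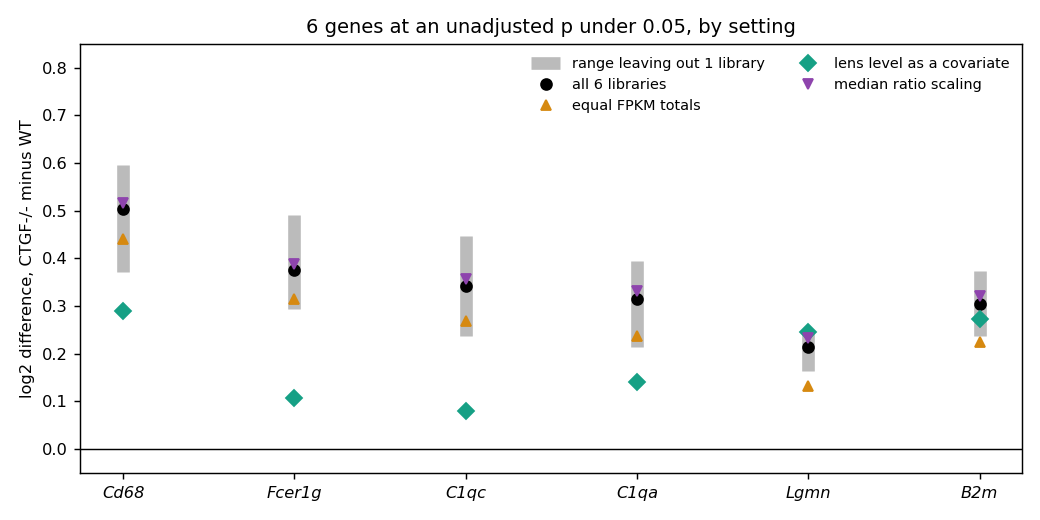
Log2 difference (CTGF-/- minus WT) of the 6 genes at an unadjusted p under 0.05, with all 6 libraries, under 2 rescalings, with lens level in the model, and as a range (grey) over fits that leave out 1 library. All values are above 0; those of Fcer1g, C1qc and C1qa lie lowest with lens level in the model, at 0.08 to 0.14.

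The transcript table held 61 transcripts of 38 of the 43 genes, of which 54 were tested and 0 passed limma (lowest adjusted p = 0.819). At an unadjusted p under 0.05, 4 were higher (1 each of B2m, Cd68, Lgmn and Tyrobp) and 0 were lower, against 2.52% and 2.53% of the 25082 transcripts tested. The listed Fcer1g transcript, at 3.81, 3.25 and 4.66 FPKM in CTGF-/- and 3.87, 2.52 and 2.2 FPKM in WT, had overlapping groups. So had the most abundant transcripts of Ctsd and Grn, although their gene levels did not overlap. The most abundant transcripts of Ctss, Cx3cr1, Aif1 and Ifnar2 had the sign opposite to their genes. Their log2 differences were 0.24, 0.02, −0.13 and −0.28, against −0.13, −0.13, 0.26 and 0.13 for the genes. The only listed transcripts of C1qa, B2m and Lyz2 had the same FPKM as their genes, so they give no second reading. The most abundant transcripts of C1qc, Cd68 and Lgmn, which were higher, and of Cd47, which was lower, had groups without overlap. The share of all transcripts without overlap was not counted. Fitted among the transcripts, the limma p was 0.0754 for the C1qa transcript and 0.0667 for the C1qc transcript. The most abundant Tyrobp transcript was at 14.8, 11.2 and 14.7 FPKM in CTGF-/- and 11, 10.2 and 10.1 FPKM in WT, without overlap (log2 difference 0.34, adjusted p = 0.819). The other listed Tyrobp transcript, named after its values were seen, had the opposite sign, at 0.093, 0.183 and 0.133 FPKM in CTGF-/- and 0.0976, 1.35 and 1.41 FPKM in WT (log2 difference −0.69, adjusted p = 0.819). Irf8, a transcription factor gene of microglia, appeared only here, with 1 transcript at 0.843, 1.05 and 0.739 FPKM in CTGF-/- and 1.19, 0.887 and 0.743 FPKM in WT. The most abundant of 5 P2ry12 transcripts was steady at 0.833, 0.735 and 0.846 FPKM in CTGF-/- and 0.778, 0.991 and 0.681 FPKM in WT, while each of the other P2ry12 transcripts was listed at 0 in 2 to 4 libraries. The authors' deposited lists of differing genes (16 higher and 14 lower, of 13072) and transcripts (194 higher and 263 lower, of 26721) held 0 of the 43 genes. Lists this short would hold few of any 43 genes. The authors' deposited p-value was under 0.05 for 4 of the genes, Cd68, Lgmn and B2m, which were higher, and Cd47, which was lower. The share of all genes at that cut was not counted. The fit without moderation put the same 4 genes at an unadjusted p under 0.05, as it did 8.26% of all genes tested.

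Other genes of the same pathways gave no common direction. Over all genes tested, 3.83% were higher and 5.49% lower at an unadjusted p under 0.05 in limma, the shares beside which the counts below stand. Of 34 further microglia and macrophage genes tested, 18 were higher and 16 lower in CTGF-/-, with a median log2 difference of 0.03 and 1 in each direction at an unadjusted p under 0.05. These were Lgals3, the galectin-3 gene of activated phagocytes, at 0.686, 0.712 and 0.922 FPKM in CTGF-/- and 0.306, 0.342 and 0.296 FPKM in WT (log2 difference 0.43, adjusted p = 0.533), and Slco2b1, lower at −0.32 (adjusted p = 0.533). Apoe, the most abundant, was at 80.1, 93.8 and 92.8 FPKM in CTGF-/- and 78.8, 69.2 and 84.7 FPKM in WT. Of 18 further complement genes 10 were higher, with a median of 0.04 and 0 at an unadjusted p under 0.05. Vtn and Clu, which encode the inhibitors vitronectin and clusterin, and Cd46, a cell surface inhibitor gene, had log2 differences of 0.28, 0.28 and −0.24 (limma adjusted p = 0.533, 0.553 and 0.539).

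Of 17 further antigen presentation genes 8 were higher and 9 lower, with a median log2 difference of −0.06. H2-T23, a nonclassical class I gene, had a log2 difference of −0.26 (adjusted p = 0.543), and Psme2, a proteasome activator gene, 0.18 (adjusted p = 0.553). H2-Ke6, a gene of the same region that encodes a hydroxysteroid dehydrogenase and not an antigen-presenting molecule, was the only one at an unadjusted p under 0.05 (log2 difference 0.32). Of 33 further interferon genes 19 were higher, with a median of 0.03. At an unadjusted p under 0.05, 3 were higher and 0 lower, against 3.83% and 5.49% of all genes tested. Pml, an interferon-induced nuclear body gene, was at 1.9, 2.94 and 1.74 FPKM in CTGF-/- and 1.17, 1.35 and 1.41 FPKM in WT (log2 difference 0.45, adjusted p = 0.533). The other two were Irf2bp1 (0.28) and Ifitm10 (0.38), neither of which is known as a classical interferon-induced gene.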

How the data were processed

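RNA from 6 retinal libraries was poly(A)-selected and sequenced with a strand-marking kit, per the labels' protocols. Reads were handled with FastQC, cutadapt, HISAT2 on GRCm38 and StringTie, per the submitters' processing notes, and the design text names Ballgown. The authors deposited FPKM per gene and transcript, and the tables keep genes whose higher group mean is at least 0.5 FPKM. The deposited log2 fold change and p-value, per the file headers, were used only to describe the authors' lists. Whether strand was used in counting is not given in the sources used here.

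Log2(FPKM + 1) was fitted with limma 3.58.1 (lmFit, eBayes with trend; R 4.3.3) over all genes with a mean of at least 0.5 FPKM, with Benjamini-Hochberg adjustment over the 12915 genes or 25082 transcripts tested and a threshold of 0.05. Log2 differences of weak genes are understated on this scale. The fit was tested on simulated data. Two-sided exact permutation tests of single genes used the 6 libraries. The members, gene lists and tests were chosen with earlier results of these data known. All 43 genes are accounted for; of further lists, the most abundant gene, the 3 with the smallest p and any past the threshold could be named. Alternatives were the pseudocount, the filter, 2 rescalings, no moderation, the replicate block, leaving out each library, and a lens covariate.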

Additional observations from a re-analysis of the deposited data

How the results depend on the processing

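No member passed the adjusted threshold in limma under any of the 14 alternatives, where 0 passed with all libraries, and 6 had an unadjusted p under 0.05. The count at an unadjusted p under 0.05 was 0 with lens level in the model and 2 to 7 leaving out 1 library, where the share of all genes was 6.14% and 4.63% to 11.1%, against 9.32% with all libraries. The count of genes whose groups did not overlap, 10 in all, was 5 under equal FPKM totals and 12 to 16 leaving out 1 library, where the share of all genes was 20.1% and 26.2% to 33.9%, against 18.5%. Over all genes, the 6 past the adjusted threshold became 3 with the lens covariate, 1 with no moderation, 2 with the replicate block and 2 to 9 leaving out 1 library.

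Same-numbered libraries of the groups did not deviate together (correlations of 0.013, 0.17 and −0.16 for numbers 1, 2 and 3). CTGF-/- replicate 3 and WT replicate 1, numbered differently, reached 0.37. With 3 libraries per group, such correlations cannot show whether the numbers pair libraries, and no pairing was assumed. With the replicate block, 4 members had an unadjusted p under 0.05, as had 9.28% of all genes tested.

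Of 36 members 25 kept their direction in every alternative run. Csf1r was at 0.054 with the lens covariate, 0.0094 under median ratio scaling and −0.12 to 0.087 leaving out 1 library. Under equal FPKM totals H2-D1 was at −0.075, Ifngr1 at −0.011 and Irf1 at −0.019, and Cx3cl1 was at −0.54 with the lens covariate. Leaving out 1 library gave −0.024 to 0.45 for Bst2, −0.078 to 0.10 for H2-D1, −0.049 to 0.64 for Ifitm2, −0.057 to 0.57 for Ifitm3, −0.079 to 0.011 for Ifnar1, −0.099 to 0.11 for Irf1, −0.25 to 0.050 for Laptm5 and −0.22 to 0.060 for Mpeg1. The cause was not tested. Depth is unknown, so values below about 1 FPKM (Spi1, Trem2, Irf1, Csf1, Isg15) have an unknown counting error.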
